A study of Homo sapiens with 15 samples.

Results

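The long noncoding RNAs UCA1, NEAT1, MALAT1 and CTD-2228K2.7 were followed in MIA PaCa-2 cells treated with lysosomotropic compounds. They are 4 of the 60107 genes listed, of which 22539 had at least 1 read. They were named from their own levels in these same libraries, so their levels are given below as a description without a test. Their names matched 7 entries, because UCA1 is listed under 2 identifiers and MALAT1 under 3. The additional entries held 0 reads for UCA1 and at most 1 read in any library for MALAT1, and were not used. The 4 main entries held reads in all 15 libraries and passed the filter on low counts that kept 10495 genes for testing.

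The MIA PaCa-2 line comes from a human pancreatic carcinoma and is labelled as epithelial. RNA was sequenced from 5 groups of 3 samples, all of this line and collected after 24 h. One group received vehicle, whose composition the labels do not give, and the others received 5 µM Lys05, BAQ12, BAQ13 or an agent labelled BAQ12O. Lys05 is a lysosomotropic autophagy inhibitor built from a pair of aminoquinolines. BAQ12 and BAQ13 carry such a head on hydrophobic tails of different length and assemble into nanoparticles (NPs). The structure of BAQ12O is not given in the sources used here. Nothing in the labels says that the 3 samples of a group came from separate cultures, so that the spread between them may be technical.

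The unit throughout is the normalised read count, that is, reads counted on a gene and scaled by the library's size factor. The libraries held 1586566 to 2500551 reads on genes. VIM, KRT8, KRT18 and KRT19 were present in all 15 libraries. The epithelial markers KRT7 and EPCAM were at 0 in most libraries and CDH1 reached 6.28 at most, whereas the markers of leukocytes, fibroblasts, endothelium, acinar cells and islets were at or near 0, with PTPRC the highest at 5.72. Replicate 3 of BAQ12 stood apart. Its genes differed from those of its mates by a median of 0.358 on the log2 scale, against 0.120 to 0.234 in the other libraries. Genes of the mitochondrial genome took 15.8% to 20.6% of the reads, and 19.01% to 20.44% with BAQ12O. The part of these differences in the results below was not tested. The values are relative to the other RNA of a library, since the 92 spike-in entries held 0 reads, and fewer cells and less RNA per cell cannot be told apart.

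Long noncoding RNAs are transcripts without a long reading frame that act as RNA. NEAT1 is the scaffold of paraspeckles, nuclear bodies that hold RNA-binding proteins, and only its long transcript builds them. MALAT1 is an abundant RNA of nuclear speckles, which store splicing factors. UCA1 was first described in urothelial carcinoma and is found in many tumour lines. CTD-2228K2.7 is a clone-based name for a little studied antisense RNA, SLC9A3-AS1.

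All 4 genes lie on the plus strand of GRCh38 (GENCODE 29). UCA1 is at chr19:15828206-15836326 and has 36 annotated transcripts. NEAT1 is at chr11:65422774-65445540 with 8 transcripts, and MALAT1 at chr11:65497688-65506516 with 17, so that 52148 bp separate the end of NEAT1 from the start of MALAT1. CTD-2228K2.7 is at chr5:473236-480884 with 7 transcripts, inside the sodium/proton exchanger gene SLC9A3 and antisense to it. SLC9A3 itself held 2 reads in all 15 libraries together. The deposited values are per gene, so that the short and long transcripts of NEAT1 cannot be told apart in them.

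The 3′ ends are shown because the sample labels name a library kit that primes on poly(A) tails, whereas the study's methods name a stranded paired-end kit. MALAT1 and the long NEAT1 transcript are known to be cut by RNase P and to end in an A-rich tract that folds with a pair of upstream U-rich motifs. The U-rich motifs and the A-rich tract are in capitals, and bases are counted from 1 at the 5′ end of the transcript. The MALAT1 stretch is at chr11:65506021-65506176, plus strand, bases 8260 to 8415 of MALAT1-202, and runs on into the small RNA that is released. The NEAT1 stretch is at chr11:65445443-65445540, plus strand, the last 98 bases of NEAT1-202.
MALAT1: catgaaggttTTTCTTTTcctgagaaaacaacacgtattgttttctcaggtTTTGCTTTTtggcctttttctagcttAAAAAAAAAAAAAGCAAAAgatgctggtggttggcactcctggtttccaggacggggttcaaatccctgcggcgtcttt
NEAT1 long transcript: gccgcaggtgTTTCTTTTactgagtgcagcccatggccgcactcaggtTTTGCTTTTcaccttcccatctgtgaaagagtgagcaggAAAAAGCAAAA

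Both ends held TTTCTTTT, then TTTGCTTTT, then AAAAAGCAAAA. The motifs were picked after these ends had been read. Of 14994 annotated lncRNA genes with a transcript sequence, 2 held the motifs in this order within 150 bases, which were NEAT1 and MALAT1. The A-rich tract alone was found anywhere in the transcripts of 75 genes (0.5%). In MALAT1 it is preceded by further A bases, for a run of 13. NEAT1-202 holds a longer run of A, of 22 bases, upstream of the stretch shown.

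For comparison, 1 annotated end with a signal for cleavage and polyadenylation is shown for each of NEAT1, UCA1 and CTD-2228K2.7, chosen because it holds the signal. The signal is in capitals in the last 80 bases of the short NEAT1 transcript NEAT1-208, of UCA1-222 and of SLC9A3-AS1-201 (chr5:480805-480884, plus strand).
NEAT1 short transcript: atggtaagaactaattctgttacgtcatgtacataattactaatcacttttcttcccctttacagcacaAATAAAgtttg
UCA1-222: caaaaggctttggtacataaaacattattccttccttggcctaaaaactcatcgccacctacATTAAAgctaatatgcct
CTD-2228K2.7: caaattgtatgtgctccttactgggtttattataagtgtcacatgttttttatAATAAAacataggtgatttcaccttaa

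AATAAA or ATTAAA was found in the last 40 bases of 26 of 36 UCA1 transcripts, 1 of 8 NEAT1 transcripts, 8 of 17 MALAT1 transcripts and 1 of 7 transcripts of CTD-2228K2.7. These are annotated ends, and the files do not show which of them were used in these cells.

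UCA1 was higher than in vehicle in each treated group, with the highest levels after BAQ13 NPs. It measured 238, 199 and 211 normalised counts in the 3 vehicle libraries. With Lys05 the libraries measured 302, 284 and 271, and with BAQ12 NPs 352, 361 and 348. The 3 groups did not overlap, and the BAQ12 libraries were the closest together. With BAQ13 NPs UCA1 measured 748, 713 and 780, and with BAQ12O 417, 399 and 477. Every BAQ13 library was above every library of the other groups.

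Its group means were 216 ± 20.2 (SD, n = 3 here and for every group mean below) in vehicle, 286 ± 15.9 with Lys05, 354 ± 6.81 with BAQ12 NPs, 431 ± 40.6 with BAQ12O and 747 ± 33.8 with BAQ13 NPs. The ratios to vehicle were 1.32, 1.64, 2.00 and 3.46 in this order. On the log2(value + 1) scale the differences were 0.40, 0.71, 0.99 and 1.79, each with a standard error of 0.09 from the fit across all genes. The order vehicle, Lys05, BAQ12, BAQ12O, BAQ13 had no overlap between any neighbours. UCA1 rested on 178 to 931 reads per library, and its spread within groups, 1.92% to 9.42% of the mean, was near the 3.45% to 6.57% that counting alone gives.

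NEAT1 was also higher in each treated group, and its highest levels were after BAQ12O. The vehicle libraries measured 1597, 1509 and 1431 normalised counts. The Lys05 libraries measured 1920, 1877 and 1930, and the BAQ12 libraries 1953, 1936 and 2025. Both groups were above vehicle and close to each other, with the highest Lys05 library just below the lowest BAQ12 library. As a share of reads they overlapped, with replicate 3 of BAQ12 at 0.0919% and replicates 1 and 3 of Lys05 at 0.0925% and 0.0927%. With BAQ13 NPs the libraries measured 2434, 2609 and 2697, and with BAQ12O 2967, 2828 and 2631. These last groups overlapped each other and lay above the rest.

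The NEAT1 means were 1512 ± 83.2 in vehicle, 1909 ± 28.5 with Lys05, 1972 ± 46.9 with BAQ12 NPs, 2580 ± 134 with BAQ13 NPs and 2808 ± 169 with BAQ12O. The ratios to vehicle were 1.26, 1.30, 1.71 and 1.86. The log2 differences were 0.34, 0.38, 0.77 and 0.89, with a standard error of 0.07. Lys05 and BAQ12 NPs, and BAQ13 NPs and BAQ12O, were therefore the neighbours whose means differed by little more than their spread.

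MALAT1 was the most heavily sampled member, with 0.971% to 1.01% of all reads on genes in vehicle and 1.31% to 1.45% with BAQ12O. Its vehicle libraries measured 20959, 20211 and 20116 normalised counts. The Lys05 libraries measured 21773, 23149 and 22265, and the BAQ12 libraries 23737, 24772 and 24467. The BAQ13 libraries measured 27003, 26174 and 26661. The BAQ12O libraries measured 27623, 27421 and 31784, and the last of these, replicate 3, was well above its mates. That library had the fewest reads on genes of all, 1586566, and 20.44% mitochondrial reads. It also had the highest BAQ12O values of UCA1 and CTD-2228K2.7 and the lowest of NEAT1. Whether its depth bears on these values was not tested. No groups overlapped.

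The MALAT1 means were 20429 ± 462 in vehicle, 22396 ± 698 with Lys05, 24325 ± 532 with BAQ12 NPs, 26613 ± 417 with BAQ13 NPs and 28942 ± 2463 with BAQ12O. These were 1.10, 1.19, 1.30 and 1.42 times the vehicle mean, the smallest ratios of the 4 genes in each treatment. The log2 differences were 0.13, 0.25, 0.38 and 0.50, with a standard error of 0.07. Without the high library, replicate 3, the BAQ12O difference was 0.43. Counting error was 0.579% to 0.678% of a value, below the 1.57% to 8.51% spread within groups.

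CTD-2228K2.7 was scarce, with 34 to 136 reads per library. It measured 33.2, 38.0 and 31.2 normalised counts in vehicle and 41.5, 45.8 and 33.6 with Lys05, and these groups overlapped. The BAQ12 libraries measured 61.4, 66.3 and 49.0. The lowest of them is the library that stood apart, and without it the log2 difference of BAQ12 NPs from vehicle was 0.89. The BAQ13 libraries measured 107, 113 and 114, and the BAQ12O libraries 94.9, 100 and 112. Both were above all BAQ12 libraries and overlapped each other.

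Its means were 34.1 ± 3.47 in vehicle, 40.3 ± 6.20 with Lys05, 58.9 ± 8.93 with BAQ12 NPs, 102 ± 8.60 with BAQ12O and 111 ± 3.60 with BAQ13 NPs. The ratios to vehicle were 1.18, 1.73, 2.99 and 3.27. The log2 differences were 0.23, 0.76, 1.56 and 1.68, with a standard error of 0.15. The counting error of 8.94% to 16.7% was as large as the spread between libraries, 3.23% to 15.4%.

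**Figure D1:**
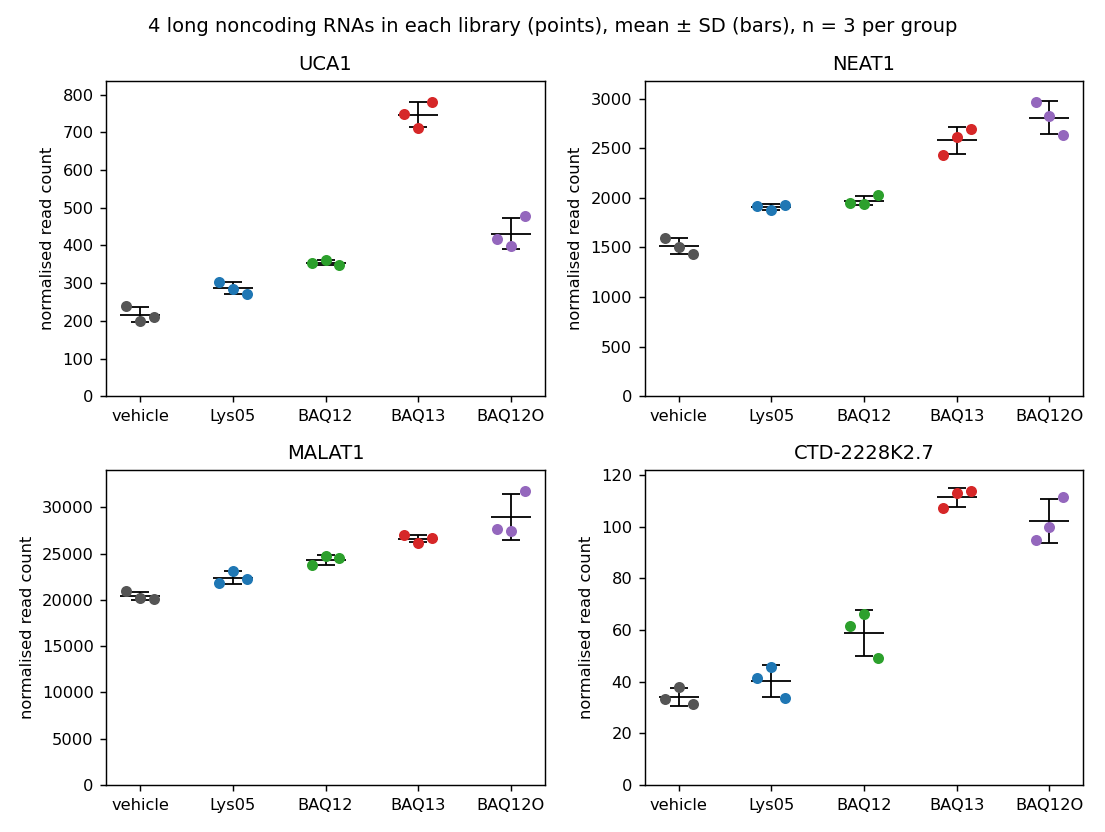
Normalised read count of UCA1, NEAT1, MALAT1 and CTD-2228K2.7 (vertical axes, from 0) in each of the 15 libraries by group. Points are libraries and bars are mean ± SD, n = 3; UCA1 peaks with BAQ13 at 713 to 780, whereas NEAT1 and MALAT1 reach their highest means, 2808 and 28942, with BAQ12O.

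All treated libraries were above all vehicle libraries for each gene in each treatment, except CTD-2228K2.7 with Lys05. Of all 10495 genes tested, 8.24% had all Lys05 libraries above vehicle, 7.75% all BAQ12 libraries, 14.5% all BAQ13 libraries and 12.5% all BAQ12O libraries. As the 4 genes were chosen on these values, nothing is read from this count. The share over all genes was not computed for pairs of treatments, so nothing is read from overlap between treatments either.

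**Figure D2:**
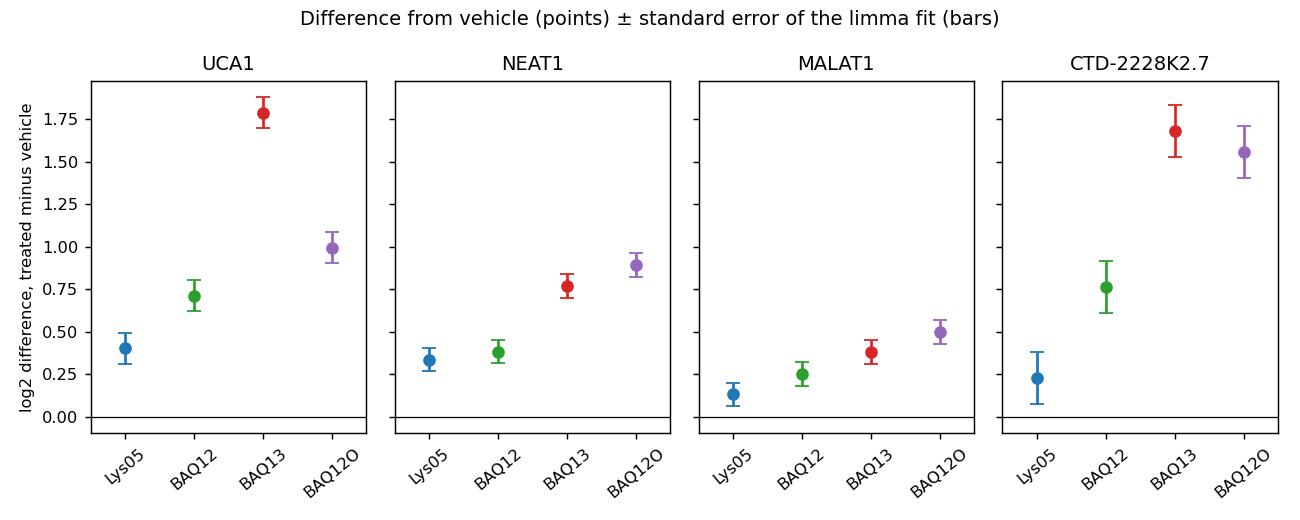
Difference from vehicle on the log2(value + 1) scale (vertical axis) for the 4 lncRNAs under each compound (horizontal axis). Points are estimates of the limma fit and bars its standard error; the values run from 0.13 for MALAT1 with Lys05 to 1.79 for UCA1 with BAQ13.

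The compounds were given at the same dose and for the same time, so that the 4 treatments can be set against each other in 6 pairs per gene. These differences are a description too. BAQ13 differs from BAQ12 in the length of its tail. With BAQ13 NPs UCA1 was 2.11 times its level with BAQ12 NPs, a log2 difference of 1.08 (standard error 0.09). CTD-2228K2.7 was 1.89 times as high, a log2 difference of 0.92 (0.15). NEAT1 was 1.31 times as high, a log2 difference of 0.39 (0.07), and MALAT1 1.09 times, a log2 difference of 0.13 (0.07).

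BAQ12O and BAQ13 were not in the same order for all 4 genes. UCA1 was lower with BAQ12O by a log2 difference of -0.79 (standard error 0.09), a ratio of 0.577. NEAT1 and MALAT1 were higher by 0.12 each (0.07), with 95% intervals of -0.02 to 0.27 and -0.03 to 0.26. CTD-2228K2.7 was lower by a log2 difference of -0.13 (0.15), with an interval of -0.45 to 0.20. The libraries of these treatments were apart for UCA1 and MALAT1 and overlapped for NEAT1 and CTD-2228K2.7.

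BAQ12O was above BAQ12 for all 4 genes, by log2 differences of 0.28 for UCA1, 0.51 for NEAT1, 0.25 for MALAT1 and 0.79 for CTD-2228K2.7. Against Lys05, BAQ12 NPs differed by 0.31 for UCA1 and 0.54 for CTD-2228K2.7. For NEAT1 the difference was 0.05, with an interval of -0.10 to 0.19, and for MALAT1 it was 0.12, with an interval of -0.03 to 0.26. BAQ13 NPs exceeded Lys05 by 1.38 for UCA1, 0.43 for NEAT1, 0.25 for MALAT1 and 1.46 for CTD-2228K2.7 (log2 differences).

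**Figure D3:**
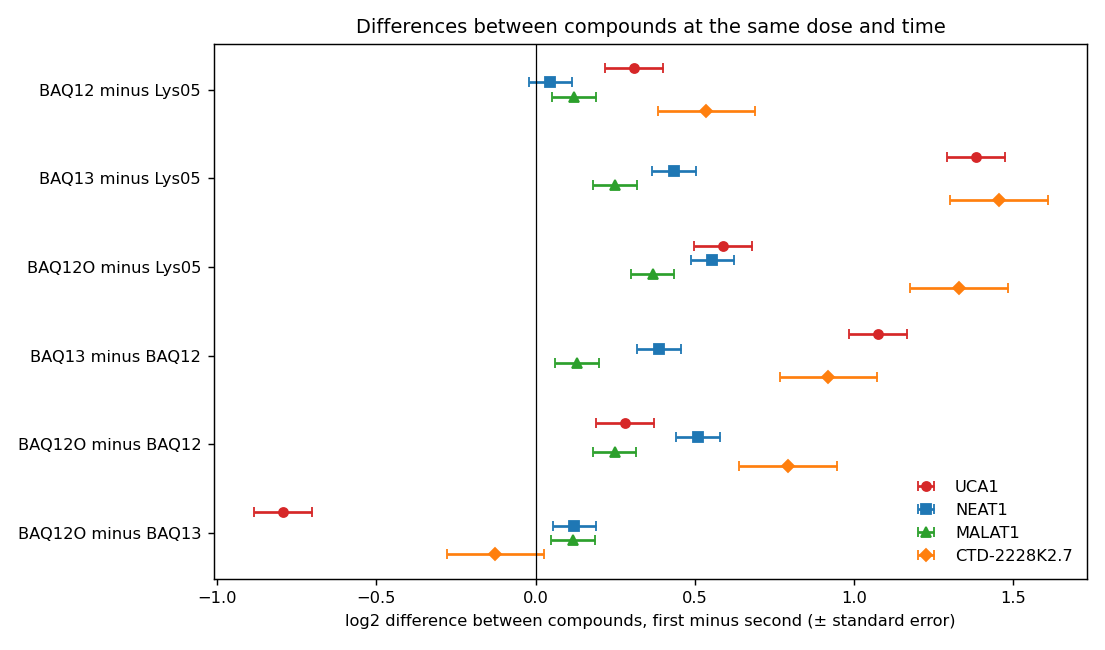
Log2 difference between compounds (horizontal axis, first minus second) for 6 pairs of treatments (vertical axis) and the 4 lncRNAs. Points are estimates and bars standard errors of the limma fit; UCA1 is the gene far below 0 for BAQ12O minus BAQ13, at -0.79.

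Over the 15 libraries the Pearson correlation of log2(value + 1) between members ran from 0.785 for UCA1 with MALAT1 to 0.916 for MALAT1 with CTD-2228K2.7. The libraries share 5 groups and the size factors, and most of this likeness was between groups. Within groups the correlations ran from -0.44 for NEAT1 with MALAT1 to 0.65 for UCA1 with MALAT1.

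The genes most like each member were named by the same correlation over 15 libraries, as a description. UCA1 was most like LITAF (r = 0.98), a protein of late endosomes and lysosomes, followed by SCD and FASN, enzymes of fatty acid synthesis, OPTN, an autophagy receptor, and ECH1, an enzyme of fatty acid oxidation (r = 0.956 to 0.965). The mean FASN count was 499 in vehicle, 645 with Lys05, 1003 with BAQ12 NPs, 1708 with BAQ13 NPs and 921 with BAQ12O. BAQ13 NPs gave the highest mean of all 5 of these genes. This is likely for genes picked by their likeness to UCA1, so nothing is read from it.

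NEAT1 was most like SHOX2, a homeobox gene (r = 0.954), with mean counts of 1044, 1284, 1340, 1564 and 1621 in vehicle, Lys05, BAQ12, BAQ13 and BAQ12O. RAB17, FNIP1, CTD-2228K2.7 and CYP1B1 followed (r = 0.911 to 0.915). MALAT1 was most like EHF, an epithelial transcription factor of the ETS family (r = 0.952), with means of 145, 156, 174, 196 and 204 in the same order, and CTD-2228K2.7, NEAT1, DENND4C and SHOX2 came next. CTD-2228K2.7 was most like FNIP1, a partner of folliculin (r = 0.931), then CHD2, NDRG4, MKNK2 and WASF2.

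The promoters of MALAT1 and SLC9A3-AS1 were found in the RefSeq table of 35116 windows of 300 bases (GRCh38.p14). That of SLC9A3-AS1, chr5:472986-473285 on the plus strand, is shown because the neighbouring lncRNA gene PP7080 starts 138 bp upstream on the other strand in GENCODE 29, within this window.
SLC9A3-AS1 promoter: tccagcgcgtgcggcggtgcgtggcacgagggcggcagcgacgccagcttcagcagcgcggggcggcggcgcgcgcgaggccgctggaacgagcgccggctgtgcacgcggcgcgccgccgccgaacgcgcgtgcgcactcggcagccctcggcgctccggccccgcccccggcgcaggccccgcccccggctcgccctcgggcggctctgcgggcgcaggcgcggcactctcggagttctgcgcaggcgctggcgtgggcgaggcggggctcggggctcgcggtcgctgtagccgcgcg

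It held 61 CG dinucleotides, against a median of 14 per window, and had a GC content of 82.3%. The second MALAT1 window, chr11:65498795-65499094 on the plus strand, is shown for its TATAAA, in capitals, a motif found on either strand in 11.5% of windows.
MALAT1 promoter, second start: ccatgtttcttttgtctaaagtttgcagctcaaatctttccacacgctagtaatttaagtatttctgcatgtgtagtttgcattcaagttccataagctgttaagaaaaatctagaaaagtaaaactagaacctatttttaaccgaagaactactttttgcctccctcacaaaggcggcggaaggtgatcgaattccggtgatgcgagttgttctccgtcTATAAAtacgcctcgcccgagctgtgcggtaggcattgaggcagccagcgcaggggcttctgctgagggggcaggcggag

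CACGTG, the E-box that TFEB and its relatives bind, reads the same on both strands and was in none of the 3 windows of these genes, against 7.26% of all windows. This says only that these letters are not in the windows.

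Genes within 500 kb of a member numbered 183, of which 56 were tested. With BAQ13 NPs 5 of 56 (8.93%) passed the test at an adjusted p-value under 0.05, beside 5.77% of all genes. Of these 3 were higher and 2 lower, with a median log2 difference of 0.07 against -0.004 over all genes. The count was 2 without replicate 2 of vehicle or replicate 2 or 3 of BAQ13, 3 without replicate 1 or 3 of vehicle and 8 without replicate 3 of BAQ12. limma, edgeR and DESeq2 each called 0 of 56 with Lys05, BAQ12 NPs and BAQ12O, beside limma shares of 0.238%, 0.981% and 1.48% of all genes, with 2, 5 and 8 genes at an unadjusted p-value under 0.05. Without replicate 3 of BAQ12 limma called 1 with BAQ12 NPs and 2 with BAQ12O, and without replicate 1 of BAQ12 it called 1 with BAQ12 NPs.

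PP7080, the divergent neighbour of CTD-2228K2.7, was the largest increase among the neighbours that passed the test. It measured 24.91, 18.98 and 29.37 normalised counts in vehicle, 25.6, 31.2 and 37.3 with Lys05 and 45.9, 48.5 and 25.1 with BAQ12 NPs. The last value is again from the library that stood apart. With BAQ13 NPs it measured 45.7, 58.3 and 61.2, and with BAQ12O 44.20, 40.04 and 44.12, so that both groups were above vehicle. The log2 difference for BAQ13 NPs was 1.15 ± 0.24 (SE), with an adjusted p-value of 0.00662 in limma, and the call held in all 15 fits that left out 1 library. For BAQ12O it was 0.80, with an adjusted p-value of 0.116 in limma. CTD-2228K2.7 and PP7080 are transcribed from opposite strands and do not overlap. PP7080 does overlap EXOC3, a gene on the opposite strand that held 1255 reads in all 15 libraries together. The sources do not settle whether reads were counted by strand, and the part of EXOC3 in the PP7080 values was not tested.

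TRIP13, a mitotic checkpoint gene 411759 bp from CTD-2228K2.7, fell from 67.6 ± 6.02 to 35.1 ± 1.16 with BAQ13 NPs. The log2 difference was -0.92, with an adjusted p-value of 0.00397 in limma. Within 500 kb of NEAT1 and MALAT1, TIGD3 and the sterol reductase gene TM7SF2 rose by 1.14 and 0.59 and the repressor gene DRAP1 fell by 0.47 on the log2 scale (limma adjusted p-values of 0.0161, 0.0228 and 0.0283). TIGD3, TM7SF2 and DRAP1 lie 65161, 306390 and 473717 bp from NEAT1. These 3 calls were lost in 4, 4 and 6 of the 15 fits without 1 library, each of them a vehicle or BAQ13 library, with adjusted p-values up to 0.0905, 0.131 and 0.119 (limma). The DRAP1 call was also lost in DESeq2 and without the filter on low counts.

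FRMD8, the nearest tested gene before NEAT1 at 9249 bp, did not pass the test and varied within groups, from 25.1 to 160 with BAQ12 NPs and from 131 to 243 with BAQ13 NPs. The nearest tested genes to UCA1 were distant, WIZ at 378255 bp and TPM4 at 230695 bp. AC004510.3, which overlaps UCA1 on the other strand, held 9 to 20 reads per group and was not tested. The annotated entry for the small RNA released from MALAT1 held 0 reads. It lies inside MALAT1 on the same strand, and how reads on both entries were counted is not known. The count of 0 therefore does not give its level.

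The shares of other lncRNAs that passed the test were near or below those of all genes. Of 433 other annotated lncRNA genes tested, 16 passed the test with BAQ13 NPs (3.7%, 11 higher and 5 lower) and 6 with BAQ12O (1.39%, 5 higher and 1 lower), beside 5.77% and 1.48% of all genes. limma, edgeR and DESeq2 each called 0 of 433 with Lys05 and with BAQ12 NPs, with 25 and 30 genes at an unadjusted p-value under 0.05. The median log2 difference was 0.02, 0.02, 0.04 and 0.12 with Lys05, BAQ12 NPs, BAQ13 NPs and BAQ12O. The medians over all genes were 0.002, -0.001, -0.004 and -0.004. With BAQ12O 283 lncRNA genes were higher and 150 lower than vehicle, beside 5190 and 5305 of all genes. At an unadjusted limma p-value under 0.05, 51 were higher and 8 lower with BAQ12O, and 32 and 25 with BAQ13 NPs. Over all genes these numbers were 708 and 631, and 1087 and 954. Without replicate 3 of BAQ12 the counts of limma calls were 3 with BAQ12 NPs, 29 with BAQ13 NPs and 14 with BAQ12O. The BAQ13 count was 6 to 9 without any 1 vehicle library or replicate 2 or 3 of BAQ13, and the BAQ12O count was 0 to 2 without any 1 vehicle or BAQ12O library. Without replicate 3 of BAQ12O the BAQ12 count was 1.

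Ranked by log2 difference among these and the members, 437 genes in all, UCA1 was 1st and CTD-2228K2.7 3rd with BAQ13 NPs, and CTD-2228K2.7 was 1st and UCA1 12th with BAQ12O. NEAT1 was 23rd and 21st and MALAT1 87th and 85th. With BAQ12 NPs CTD-2228K2.7 ranked 14, UCA1 20, NEAT1 72 and MALAT1 118. With Lys05 the members ranked between 51 and 152, well inside the distribution. As the members were chosen on these values, nothing is read from their ranks.

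**Figure D4:**
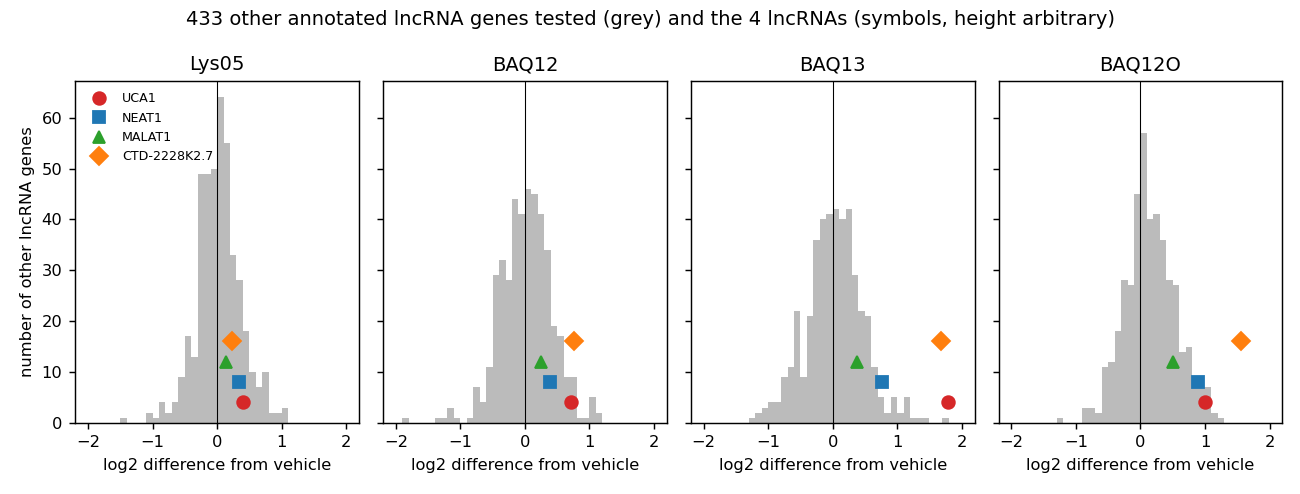
Number of other annotated lncRNA genes (vertical axis) by log2 difference from vehicle (horizontal axis, bins of 0.1) in each treatment, with the 4 lncRNAs as symbols at arbitrary height. The 4 lncRNAs were chosen on these values. UCA1 and CTD-2228K2.7 lie at the right edge with BAQ13, at 1.79 and 1.68, whereas MALAT1 lies within the distribution of the 433 genes in every treatment.

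AC135048.13 was the largest increase among the genes of this class that passed the test. It measured 20.8, 7.82 and 18.4 in vehicle and 49.5, 53.8 and 52.0 with BAQ13 NPs, a log2 difference of 1.77 ± 0.30 (SE) with a limma adjusted p-value of 0.00136. RP5-943J3.2 was the largest decrease among them, with 52.3, 49.1 and 53.2 in vehicle and 25.2, 26.4 and 15.1 with BAQ13 NPs, a log2 difference of -1.22 ± 0.20 and a limma adjusted p-value of 0.000689. Neither pair of groups overlapped, and both calls held in all 15 fits without 1 library. RP5-943J3.2 was also lower with BAQ12O, at 28.3 ± 2.25, with a limma adjusted p-value of 0.0342. That call was lost with a replicate block, without the filter on low counts and without any 1 vehicle or BAQ12O library or replicate 1 of Lys05, with adjusted p-values up to 0.144 in limma.

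RP11-660L16.2 and SNAI3-AS1 rose with BAQ13 NPs by 1.29 and 1.16 (limma adjusted p-values of 0.0146 and 0.0383). LINC00173, LL22NC03-2H8.5, PRKAG2-AS1 and CTB-89H12.4 rose with BAQ12O by log2 differences of 0.61 to 1.19 (limma adjusted p-values of 0.015 to 0.042). These 6 calls were kept in 3 to 12 of the 15 fits without 1 library, with limma adjusted p-values up to 0.203. They were lost without vehicle libraries or libraries of the treatment, and the calls of SNAI3-AS1 and PRKAG2-AS1 also without libraries of other treatments, replicate 3 of Lys05 for the first and replicates 1, 2 and 3 of Lys05, 2 of BAQ12 and 2 and 3 of BAQ13 for the second. DESeq2 did not call LINC00173 or PRKAG2-AS1. SNAI3-AS1 and PRKAG2-AS1 were not called without the filter on low counts, and PRKAG2-AS1 was not called with scaling to total reads or with a replicate block either.

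Among 20 other well-known lncRNAs tested, 2 passed the test with BAQ13 NPs, beside 5.77% of all genes. KCNQ1OT1, an imprinted antisense RNA, fell from 136 ± 14.4 to 83.9 ± 9.30, a log2 difference of -0.70 (limma adjusted p-value 0.0218), and OIP5-AS1, a cytoplasmic RNA that binds HuR, rose from 233 ± 27.97 to 309 ± 8.85, a log2 difference of 0.42 (0.0131). The count was 0 without replicate 1 or 3 of vehicle or replicate 2 of BAQ13, 1 without replicate 2 of vehicle or replicate 3 of BAQ13, 4 without replicate 1 of BAQ13 and 5 without replicate 3 of BAQ12. No tool called any of the 20 in the other treatments, with 0, 0 and 3 at an unadjusted p-value under 0.05 for Lys05, BAQ12 NPs and BAQ12O. The BAQ12O count was 1 without replicate 3 of BAQ12. The list medians were -0.06, -0.16, -0.18 and 0.12 for Lys05, BAQ12 NPs, BAQ13 NPs and BAQ12O (log2).

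The 15 hosts of small nucleolar RNAs tested, such as GAS5 and SNHG1, held no call in any treatment with limma, edgeR or DESeq2, with 1, 2, 3 and 1 at an unadjusted p-value under 0.05 for Lys05, BAQ12 NPs, BAQ13 NPs and BAQ12O. With BAQ12O 1 was called without replicate 3 of BAQ12. Their medians lay between -0.13 and 0.02. Of 7 abundant RNAs without a poly(A) tail only RN7SK and TERC had enough reads to be tested, and neither was called by limma, edgeR or DESeq2 or had an unadjusted p-value under 0.05.

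None of the listed genes for proteins of paraspeckles and nuclear speckles passed the test as higher. The values are of their RNA, and protein was not measured in these libraries. Of 27 paraspeckle proteins tested, 0, 1, 2 and 3 passed the test with Lys05, BAQ12 NPs, BAQ13 NPs and BAQ12O, all of them lower. These were 0%, 3.70%, 7.41% and 11.1% of the list, beside 0.238%, 0.981%, 5.77% and 1.48% of all genes. The BAQ12 count was 0 without replicate 2 or 3 of vehicle. The list medians were -0.10, -0.10, -0.16 and -0.17 on the log2 scale, beside medians within 0.004 of 0 over all genes. With Lys05 limma, edgeR and DESeq2 called 0, and 5 were lower at an unadjusted p-value under 0.05. NONO and PSPC1, which form a family with SFPQ at the core of these bodies, did not pass the test in any treatment.

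TAF15, an RNA-binding protein of paraspeckles, fell from 188 ± 12.1 to 136 ± 8.999 with BAQ13 NPs (limma adjusted p-value 0.00783). SFPQ, a core paraspeckle protein, fell from 677 ± 17.9 to 528 ± 25.1 with BAQ12O (0.0262, limma), and the cold-shock protein RBM3 from 635 ± 6.64 to 500 ± 27.1 (0.0424, limma). The TAF15 call held in all 15 fits, that of SFPQ in 10 and that of RBM3 in 4, with limma adjusted p-values up to 0.14 for SFPQ and 0.174 for RBM3. Without the filter on low counts neither was called, and RBM3 was not called with a replicate block. The count for BAQ12O was 0 without replicate 2 or 3 of vehicle or replicate 1 of BAQ12O, 1 without any other vehicle or BAQ12O library and 7 without replicate 3 of BAQ12. Without this last library the counts were 2 with Lys05 and 5 with BAQ13 NPs.

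Of 27 nuclear speckle and SR proteins tested, 0, 2, 4 and 2 passed the test with Lys05, BAQ12 NPs, BAQ13 NPs and BAQ12O, again all lower, while the list medians stayed between -0.05 and 0.04. The counts were 0%, 7.41%, 14.8% and 7.41% of the list, beside 0.238%, 0.981%, 5.77% and 1.48% of all genes. All the genes called encode SR proteins, a family of splicing factors. SRSF2 measured 582, 557 and 577 in vehicle, 409, 450 and 416 with Lys05 and 407, 445 and 313 with BAQ12 NPs. With BAQ13 NPs it measured 364, 431 and 429, and with BAQ12O 415, 337 and 385. All treated libraries were below all vehicle libraries. The log2 differences were -0.57, -0.49 and -0.60 for BAQ12 NPs, BAQ13 NPs and BAQ12O (limma adjusted p-values of 0.0203, 0.0172 and 0.0118).

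SRSF6 fell with BAQ12 NPs and BAQ13 NPs by 0.52 and 0.51 (log2), SRSF7 and SRSF3 with BAQ13 NPs by 0.53 and 0.32, and SRSF5 with BAQ12O by 0.33 (limma adjusted p-values of 0.0104 to 0.0468). No SR protein call held in all 15 fits without 1 library. The SRSF5 call was kept in 1 and the SRSF7 call in 3, with limma adjusted p-values up to 0.228 and 0.152. The others were kept in 9 to 13. SRSF3, SRSF5 and SRSF7 were not called without the filter on low counts, SRSF5 was not called with a replicate block, and SRSF7 was not called with scaling to total reads. The BAQ12 calls of SRSF2 and SRSF6 were lost with only the 6 libraries compared. The BAQ13 count was 0 to 2 without any 1 vehicle library or replicate 1 or 2 of BAQ13. The BAQ12 count was 0 without any 1 vehicle library and 1 without replicate 2 of Lys05, 1 of BAQ12 or 2 of BAQ13. The BAQ12O count was 0 or 1 without any library other than replicate 3 of BAQ12. Without replicate 3 of BAQ12 the counts were 1, 2, 10 and 8 with Lys05, BAQ12 NPs, BAQ13 NPs and BAQ12O. With Lys05 no tool called any of the 27, and 4 were lower and 0 higher at an unadjusted limma p-value under 0.05. By the same measure 4 were higher and 5 lower with BAQ12 NPs, 1 and 7 with BAQ13 NPs, and 6 and 6 with BAQ12O.

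**Figure D5:**
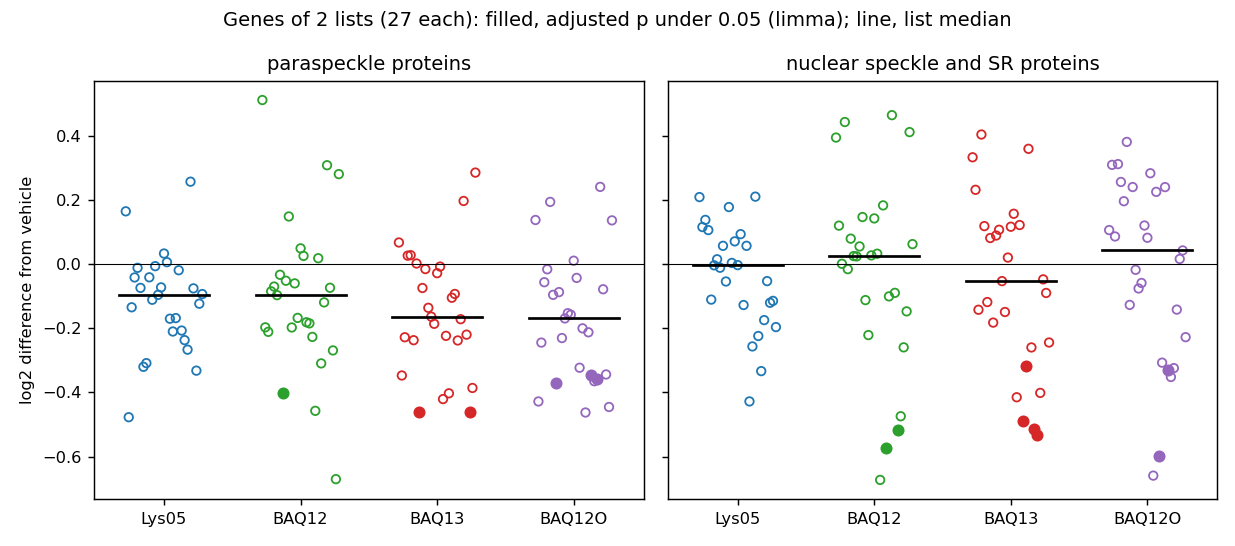
Log2 difference from vehicle (vertical axis) of 27 paraspeckle proteins and 27 nuclear speckle and SR proteins in each treatment (horizontal axis). Each circle is a gene, filled where the limma adjusted p-value is under 0.05, and lines are list medians; all filled circles lie below 0.

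The enzymes that mature the MALAT1 3′ end, the RNase P subunits and ELAC2, and METTL16, which binds its triple helix, held no call in any treatment among 11 tested with limma, edgeR or DESeq2. At an unadjusted p-value under 0.05 there were 1, 0, 2 and 1 genes with Lys05, BAQ12 NPs, BAQ13 NPs and BAQ12O, and the list medians were -0.14, -0.03, -0.05 and -0.18. BAQ13 NPs and BAQ12O had 1 call each without replicate 3 of BAQ12.

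Of 13 tested regulators and partners of NEAT1 and UCA1, CEBPB, a transcription factor of the C/EBP family, passed the test with BAQ13 NPs, 7.69% of the list beside 5.77% of all genes. It measured 152, 144 and 141 in vehicle and 222, 250 and 232 with BAQ13 NPs, a log2 difference of 0.68 ± 0.10 (SE) with a limma adjusted p-value of 0.000316, and the call held in all 15 fits without 1 library. The Lys05 libraries measured 170, 171 and 167 and the BAQ12O libraries 189, 192 and 190, also above all vehicle libraries. The BAQ12 libraries measured 186, 182 and 146, and only the last of these overlapped vehicle. limma, edgeR and DESeq2 each called 0 of 13 in these treatments, with 1, 4 and 3 genes at an unadjusted p-value under 0.05 for Lys05, BAQ12 NPs and BAQ12O. The counts without replicate 3 of BAQ12 were 3 with BAQ13 NPs and 1 with BAQ12O. HIF1A, HSF1, STAT3 and YAP1 did not pass the test in any treatment. The list medians were 0.03, 0.12, 0.05 and -0.06.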

How the data were processed

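All 15 libraries of MIA PaCa-2 RNA were used, in 5 groups of 3 taken from the sample labels. For every gene of a library the authors deposited a normalised signal. It is a read count divided by a DESeq2-type size factor, and 100% of the values in each library were whole multiples of 1 step within 0.01, so that reads were recovered. The submitters' processing notes name STAR, HTSeq, DESeq2 and GRCh38, without versions. The labels name a 3′-end library kit, whereas the methods of the study describe paired-end stranded libraries, so lncRNAs were not ranked by level.

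Because the deposited values are normalised, limma 3.58.1 (R 4.3.3, eBayes with a variance trend) was run on log2(value + 1) over all 15 libraries without covariates, a scale that shrinks the fold changes of weakly expressed genes. Genes were kept by filterByExpr of edgeR 4.0.16 on the reads (minimum 10, total 15), and p-values were adjusted by Benjamini-Hochberg over 10495 genes. An adjusted p-value under 0.05 was a call. At the same threshold the quasi-likelihood test of edgeR, run on recovered reads, called 24, 102, 689 and 160 genes and DESeq2 1.42.0 called 27, 112, 530 and 139 for Lys05, BAQ12, BAQ13 and BAQ12O against vehicle. Alternatives were TMM factors, total reads (also without mitochondrial genes and the 4 lncRNAs), pseudocounts of 0.1 and 5, other filters, 6 libraries per fit, a replicate block, edgeR, DESeq2 and leaving out each library.

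The 4 lncRNAs and the gene lists were chosen with earlier results of these data known. Up to 5 genes per list, neighbourhood (500 kb) and treatment were named, those called and with no overlap of treated and vehicle libraries, by the largest log2 difference, with the nearest tested and overlapping genes and the 5 most alike genes. Positions and transcripts are from GENCODE 29, which holds 56531 of the 60107 identifiers, and promoters from RefSeq (Python 3.11.15, pandas 2.3.3, matplotlib 3.10.9). Some genes that these rules name are not reported here, though they remain in the counts.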

Additional observations from a re-analysis of the deposited data

How the results depend on the processing

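The 16 differences of the 4 lncRNAs from vehicle were above 0 in all 416 recalculations, as is likely for genes chosen on these values, and 1 moved by more than the spread between replicates, that of CTD-2228K2.7 with BAQ13 NPs, which was 1.58 in place of 1.68 with a pseudocount of 5, as a larger pseudocount shrinks differences of low counts. The numbers of genes called depended more on the libraries fitted. With the 6 libraries of each comparison alone, 115, 31, 947 and 871 genes were called for Lys05, BAQ12, BAQ13 and BAQ12O, in place of 25, 103, 606 and 155. Leaving out 1 library gave 19 to 51, 56 to 137, 320 to 1441 and 75 to 524 genes, with each highest count without replicate 3 of BAQ12, the library that stood apart, and the lowest without replicate 2 (Lys05) or 3 (the others) of vehicle. Counts more than 1.5 times lower also came without any 1 vehicle library for BAQ12 (56 to 61) and BAQ12O (75 to 84), without replicate 2 of vehicle or replicate 1 or 2 of BAQ13 for BAQ13 (324, 378 and 370), and without any 1 BAQ12O library for BAQ12O (76 to 102). With 6 libraries in a fit, BAQ12O had 9 paraspeckle proteins, 13 nuclear speckle and SR proteins and 20 other lncRNAs called, and Lys05 had 4, 3 and 1, whereas BAQ12 had 0 of each protein list and BAQ13 had 4 paraspeckle proteins. In these fits Lys05 had 1 host of small nucleolar RNAs and 1 neighbouring gene called, and BAQ12O had 1 and 4. BAQ13 and BAQ12O had 1 call each among the genes for the MALAT1 3′ end. Of the regulators and partners of NEAT1 and UCA1, 3 were called with BAQ13 and 1 with BAQ12O. BAQ12O also had 2 of the other well-known lncRNAs called. Without the filter on low counts BAQ12O had 1 of each protein list and BAQ13 had 2 nuclear speckle and SR proteins. The cause was not tested.

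Treated and vehicle samples with the same replicate number did not deviate together (correlations of -0.131 to 0.106). Pairs of treatments were not examined in this way, so whether the numbers pair the samples was not settled. A replicate block left 21, 77, 512 and 119 genes called, while SR protein calls with BAQ12O numbered 1 in place of 2 and calls of other lncRNAs 3 in place of 6. Depth limits CTD-2228K2.7 most, whose counting error was up to 16.7%.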
